A study of Mus musculus with 2 samples.

Results

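The visual cycle and retinoid genes described here were 9 genes of the 25778 in the count table, taken by name and not by their values: *Rlbp1*, *Rgr*, *Rdh10*, *Aldh1a1*, *Rdh12*, *Rdh11*, *Abca4*, *Rbp3* and *Dhrs3*. All 9 were present in the table, and their levels were compared between cell types and between genotypes to describe how the cycle was divided between photoreceptors and Müller glia (MG). Single-cell RNA sequencing was performed on whole retina from 1 Ptbp1-Ctrl mouse (*Chx10-Cre*, stated as *Ptbp1* +/+ in the study's methods) and 1 Ptbp1-KO mouse (*Chx10-Cre;Ptbp1*lox/lox), each 30 days old. Both mice carried *Chx10-Cre*, a transgene expressed in retinal progenitors, so neurons and MG that descend from those progenitors carried the deletion in Ptbp1-KO, and the effect of the transgene itself cannot be told apart from the rest of the control background. The protein made from *Ptbp1* binds RNA and keeps neuronal exons out of transcripts. With 1 library per genotype no test between genotypes was possible, and every interval given below is a 95% interval that covers counting error only.

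The visual cycle restores the light-sensitive chromophore of the opsins. Light turns 11-cis-retinal into all-trans-retinal in photoreceptors, where it is cleared from the disc membranes and reduced to retinol, and the 11-cis form is made again in the retinal pigment epithelium and, for cones, is thought to be made in MG as well. The genes were ordered by role. *Rlbp1* encodes CRALBP, which binds 11-cis-retinoids, and *Rgr* encodes an opsin that makes 11-cis-retinal in the light. *Rdh10* encodes a retinol dehydrogenase and *Aldh1a1* an enzyme that oxidises retinal to retinoic acid. *Rdh12*, *Rdh11* and *Dhrs3* encode short-chain dehydrogenases that reduce retinal, *Abca4* encodes the disc membrane transporter that flips retinal bound to phosphatidylethanolamine, and *Rbp3* encodes IRBP, the retinoid carrier of the matrix between photoreceptors and pigment epithelium.

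The 9 genes lie on 7 chromosomes of mm10 (GENCODE vM21), each of them annotated as protein coding. *Rlbp1* spans chr7:79374870-79387048 on the minus strand, *Rgr* chr14:37034909-37048964 (minus), *Rdh10* chr1:16105774-16133734 (plus), *Aldh1a1* chr19:20492715-20643465 (plus) and *Rdh12* chr12:79208914-79222665 (plus). *Rdh11* spans chr12:79174337-79192293 (minus), *Abca4* chr3:122044443-122180123 (plus), *Rbp3* chr14:33954003-33964216 (plus) and *Dhrs3* chr4:144892827-144928209 (plus). *Rdh11* and *Rdh12* thus lie close together on chromosome 12 and are read in opposite directions. *Aldh1a1* overlaps *C730002L08Rik* and *Gm6684*, and *Abca4* overlaps the pseudogenes *Gm43158* and *Gm43157*, all on the opposite strand.

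The 250 bases before the RefSeq start (GRCm38.p6, the assembly of mm10) are printed for 4 genes, because the genes fell into a photoreceptor group and an MG group whose members varied together. *Rbp3* and *Abca4* were taken from the photoreceptor group, and *Rlbp1* and *Rgr* from the MG group. Each sequence reads 5′ to 3′ on the strand of its gene, and capitals mark TAATCC or its reverse complement GGATTA, the core letters bound by the photoreceptor factors CRX and OTX2.
Rbp3 (chr14:33953753-33954002, plus): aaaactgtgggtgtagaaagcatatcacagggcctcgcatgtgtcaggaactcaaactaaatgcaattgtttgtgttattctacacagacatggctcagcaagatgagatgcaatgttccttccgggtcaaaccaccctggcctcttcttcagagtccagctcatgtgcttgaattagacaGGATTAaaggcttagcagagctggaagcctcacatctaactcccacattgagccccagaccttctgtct
Abca4 (chr3:122044210-122044459, plus): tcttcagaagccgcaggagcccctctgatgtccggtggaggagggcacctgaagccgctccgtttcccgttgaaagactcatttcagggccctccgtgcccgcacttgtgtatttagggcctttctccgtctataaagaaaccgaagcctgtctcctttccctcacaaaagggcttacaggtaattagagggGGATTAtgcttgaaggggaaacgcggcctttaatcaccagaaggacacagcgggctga
Rgr (chr14:37049015-37049264, minus): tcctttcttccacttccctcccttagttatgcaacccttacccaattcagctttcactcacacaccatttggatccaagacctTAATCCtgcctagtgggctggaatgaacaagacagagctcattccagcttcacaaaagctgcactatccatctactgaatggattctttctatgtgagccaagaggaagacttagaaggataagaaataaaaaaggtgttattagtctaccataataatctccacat
Rlbp1 (chr7:79387028-79387277, minus): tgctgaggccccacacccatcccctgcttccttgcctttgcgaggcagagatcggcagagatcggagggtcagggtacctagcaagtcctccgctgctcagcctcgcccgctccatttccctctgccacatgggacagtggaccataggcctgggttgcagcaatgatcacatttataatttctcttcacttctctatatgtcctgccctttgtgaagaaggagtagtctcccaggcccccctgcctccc

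Of the 9 genes, 8 had a promoter entry, with 12 windows between them, and *Rdh10* had none. TAATCC or its reverse complement was found in windows of 3 genes, 69 bases before the start in *Rbp3*, 58 bases in *Abca4* and 167 bases in *Rgr*, against 6.25% of the 32851 windows of all genes. The match thus occurred in both groups. These letters did not occur in the windows of *Rdh12*, *Rdh11* and *Dhrs3* of the photoreceptor group, nor in those of *Aldh1a1* and *Rlbp1* of the MG group. TGCTGAC, letters of the Maf factor site held by 3.81% of all windows, and AACAATG, a SOX core held by 3.29%, were found in none of the 12 windows on either strand. AGGTCA, letters shared by nuclear receptor sites and held by 14.0% of all windows, was found once, in 1 window of *Rdh11*, 147 bases before its start. These are matches of letters and not measured sites.

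The libraries held 16421 cells with 32758836 UMIs (unique molecular identifiers, each counted as 1 captured transcript) in Ptbp1-Ctrl and 14522 cells with 35328593 UMIs in Ptbp1-KO, and 63 cell barcodes occurred in both. The authors' cell types were used, of which MG, the photoreceptors (rods and cones), bipolar cells (BC) and the amacrine cells (AC) each held over 1000000 UMIs in each library, whereas horizontal cells (HC) and retinal ganglion cells (RGC) were shallower. Median depth was lowest in rods, at 1088 UMIs per cell in Ptbp1-Ctrl and 1288 in Ptbp1-KO, against 3333 and 4178 in MG. *Ptbp1* itself was at 13.8 CPM (UMIs per 1000000 UMIs of the type) or more in each of the 5 deep types of Ptbp1-Ctrl and at 1.18 CPM or less in those of Ptbp1-KO. In both libraries *Xist* did not exceed 0.170 CPM while each of 4 Y-linked genes was at least at 43.1 CPM, although the methods describe female mice. The 10 rod markers summed to 55585 and 50339 CPM in rods, against 8918 and 7008 CPM in MG. The 10 MG markers summed to 26270 and 27846 CPM in MG, against 232 and 227 CPM in rods. Detection alone does not mark a type, since all 10 rod markers were found in every type, and in RGC they summed to 33612 and 40738.5 CPM. The counts come from the 3′ ends of transcripts and were not divided by length, so each gene was compared with itself across types and not with other genes.

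In both libraries 4 of the genes were higher in MG than in photoreceptors and 5 were higher in photoreceptors. *Rlbp1*, *Rdh10*, *Aldh1a1* and *Rgr* formed the MG group, and *Rdh12*, *Abca4*, *Rbp3*, *Dhrs3* and *Rdh11* the photoreceptor group. The split was the same in both libraries under the 4 settings run for it, namely thinned cells, cells without the 10% richest in markers of other types, the mean of per-cell CPM and the largest cluster of each type. MG of Ptbp1-Ctrl supplied 94.8% of all *Rlbp1* UMIs (94.4 to 95.2), 91.4% of *Aldh1a1*, 70.6% of *Rdh10* and 68.97% of *Rgr*, while they held 18.0% of the UMIs of all genes. MG of Ptbp1-KO supplied 94.0%, 85.3%, 64.5% and 82.2% of the same genes, against 14.4% of all UMIs. Rods and cones together supplied 82.7% of *Rdh12*, 81.6% of *Abca4*, 80.5% of *Rbp3*, 71.8% of *Dhrs3* and 62.7% of *Rdh11* in Ptbp1-Ctrl, and 84.1%, 82.8%, 80.0%, 72.1% and 58.4% in Ptbp1-KO, against 45.1% of all UMIs in each library. These shares also follow the number of cells of each type that were captured. The authors named the types from marker genes, and the clusters beneath were built from the expression of the same cells, so the differences between types are descriptions.

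**Figure D1:**
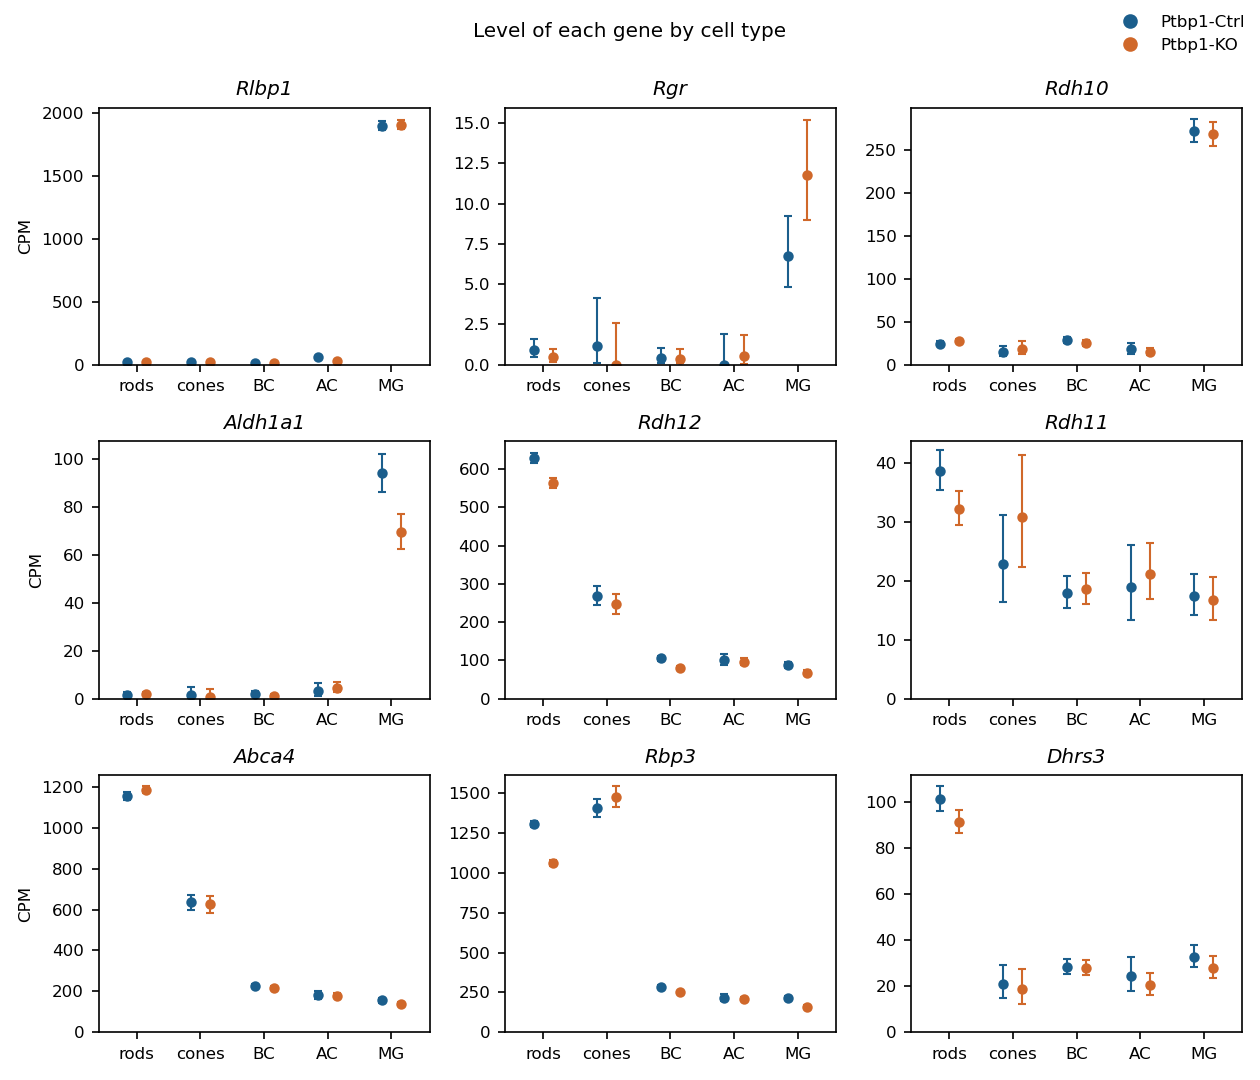
Level of each of the 9 genes in CPM (linear axis from 0) in rods, cones, BC, AC and MG of each library, with exact Poisson 95% intervals as bars. *Rlbp1*, *Rgr*, *Rdh10* and *Aldh1a1* stand highest in MG, the other genes stand highest in rods except *Rbp3*, whose highest point is cones.

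**Figure D2:**
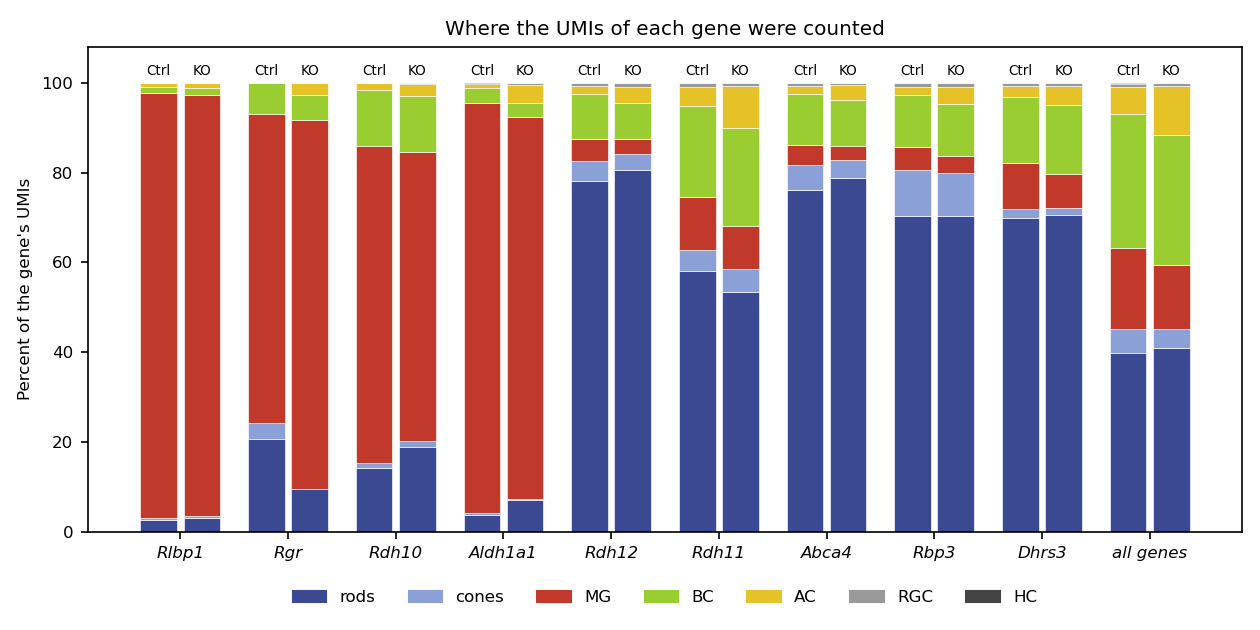
Percent of each gene's UMIs that were counted in each cell type, for both libraries, with the same split for all genes at the right. MG hold 94.8% and 94.0% of *Rlbp1* UMIs, against 18.0% and 14.4% of the UMIs of all genes.

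*Rlbp1*, for the retinoid-binding protein CRALBP, reached 1899 CPM in MG of Ptbp1-Ctrl (1864 to 1935, 11218 UMIs) and 1908 CPM in MG of Ptbp1-KO (1870 to 1946, 9704 UMIs). The other types lay far below, with 58.8 CPM (48.5 to 70.6) and 30.6 CPM (25.3 to 36.6) in AC and 24.4 and 22.2 CPM in rods. Cones stood at 20.6 and 21.0 CPM and BC at 14.5 and 14.2 CPM. MG thus stood apart from every other type in both libraries, at a log2 ratio over rods of 6.28 (6.12 to 6.45) and 6.42 (6.26 to 6.59). The AC of Ptbp1-Ctrl also lay above rods, while the intervals of rods and cones, and of cones and BC, overlapped in Ptbp1-Ctrl.

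*Rdh10*, the retinol dehydrogenase of this group, was at 272 CPM in MG of Ptbp1-Ctrl (259 to 286) and at 269 CPM in MG of Ptbp1-KO (255 to 283, 1366 UMIs). BC followed at 28.9 and 25.5 CPM and rods at 24.6 and 27.6 CPM, whereas AC stood at 18.4 and 15.04 CPM and cones at 15.5 and 18.9 CPM. Its log2 ratio of MG over rods was 3.47 (3.29 to 3.65) in Ptbp1-Ctrl and 3.28 (3.12 to 3.45) in Ptbp1-KO. *Rdh10* was therefore less concentrated in MG than *Rlbp1*, since the intervals of the ratios of MG over rods did not overlap in either library, and the other types could not be ordered consistently between the libraries.

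*Aldh1a1*, which makes retinoic acid from retinal, was concentrated in MG, at 94.1 CPM in Ptbp1-Ctrl (86.5 to 102, 556 UMIs) and 69.4 CPM in Ptbp1-KO (62.4 to 77.0, 353 UMIs). The 4 other deep types ranged from 1.69 to 3.07 CPM in Ptbp1-Ctrl and from 0.701 to 4.41 CPM in Ptbp1-KO. *Rgr* was scarce in the neural retina, with 40 UMIs in MG of Ptbp1-Ctrl (6.77 CPM, 4.84 to 9.22) and 60 UMIs in MG of Ptbp1-KO (11.8 CPM, 9.003 to 15.2). Rods held 12 and 7 *Rgr* UMIs (0.920 and 0.483 CPM), cones 2 and 0, BC 4 and 4, and AC 0 and 2. Even at these counts the MG intervals lay above those of rods, at a log2 ratio of MG over rods of 2.88 (1.92 to 3.95) and 4.61 (3.48 to 5.99).

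*Rdh12*, a retinal reductase of photoreceptor inner segments, was highest in rods, at 629 CPM in Ptbp1-Ctrl (616 to 643) and 563 CPM in Ptbp1-KO (551 to 576). Cones held 268 CPM (244 to 294) and 247 CPM (222 to 274). BC had 105 and 79.0 CPM, AC 102 and 97.0 CPM, and MG 87.7 and 68.2 CPM. Rods thus stood above cones in both libraries, by a log2 ratio of 1.23 (1.10 to 1.37) and 1.19 (1.04 to 1.35), and the cone level stood above BC, AC and MG.

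*Abca4*, the disc membrane transporter, was likewise highest in rods and next in cones, with 1154 CPM (1136 to 1173) and 1184 CPM (1166 to 1202) in rods and 634 CPM (597.5 to 673) and 626 CPM (585 to 668) in cones. BC stood at 228 and 219 CPM, AC at 181 and 179 CPM, and MG at 156 and 137 CPM. The log2 ratio of rods over cones was 0.86 (0.78 to 0.95) in Ptbp1-Ctrl and 0.92 (0.82 to 1.02) in Ptbp1-KO. Rods and cones were therefore closer in *Abca4* than in *Rdh12*, as the intervals of the 2 ratios did not overlap in either library.

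*Rbp3*, the secreted carrier IRBP, was the gene of the group whose level was higher in cones than in rods. Cones held 1404 CPM in Ptbp1-Ctrl (1349 to 1461) and 1475 CPM in Ptbp1-KO (1413 to 1540), and rods 1302 CPM (1283 to 1322) and 1060 CPM (1043 to 1077). The log2 ratio of cones over rods was 0.11 (0.05 to 0.17) in Ptbp1-Ctrl and 0.48 (0.41 to 0.54) in Ptbp1-KO. Below them came BC at 285 and 251 CPM, AC at 218 and 208 CPM and MG at 216 and 158 CPM. The order of cones above rods was kept in both libraries, and the distance was larger in the Ptbp1-KO library, where the rod level was lower.

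*Dhrs3* was a rod transcript more than a cone transcript. Rods held 101.3 CPM (95.9 to 107) and 91.4 CPM (86.6 to 96.5), against 21.2 CPM (14.9 to 29.2) and 18.9 CPM (12.5 to 27.6) in cones, a log2 ratio of 2.26 (1.79 to 2.77) and 2.27 (1.72 to 2.88). Cones did not stand above the inner retina, where MG had 32.8 and 28.1 CPM, BC 28.5 and 28.0 CPM and AC 24.5 and 20.7 CPM, with intervals that overlapped the cone interval in Ptbp1-Ctrl and in Ptbp1-KO. *Rdh11*, a related reductase gene, was low and widely spread, at 38.7 CPM (35.4 to 42.3) and 32.3 CPM (29.4 to 35.4) in rods and 22.9 CPM (16.4 to 31.2) and 30.9 CPM (22.4 to 41.4) in cones. BC, AC and MG lay between 17.4 and 18.9 CPM in Ptbp1-Ctrl and between 16.7 and 21.3 CPM in Ptbp1-KO. Rods were above cones in Ptbp1-Ctrl (log2 0.76, 0.29 to 1.26), and no difference was detectable at this depth in Ptbp1-KO (0.07, −0.38 to 0.55).

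In droplet libraries, free RNA and mixed droplets give every cell type a low level of the most abundant transcripts, so the level of each gene outside its main type was set beside that of cell type markers. The 10 rod markers, among them *Gnat1*, *Sag*, *Nrl*, *Gngt1* and *Rp1*, were at 14.2 to 18.0% of their rod level in MG of Ptbp1-Ctrl and at 11.9 to 16.6% in MG of Ptbp1-KO. *Rdh12* (13.9 and 12.1%), *Abca4* (13.5 and 11.6%) and *Rbp3* (16.6 and 14.9%) lay within or just under that range, which is the level read as background here. *Dhrs3* stood above it in both libraries, at 32.4% (27.7 to 37.7) and 30.8% (25.7 to 36.6), and so did *Rdh11*, at 45.0% (36.1 to 55.8) and 51.8% (40.6 to 65.3). In cones the rod markers reached 22.2 to 67.0% of their rod level in Ptbp1-Ctrl, with a median of 25.3%, and 20.8 to 69.8% in Ptbp1-KO, with a median of 27.3%. *Rdh12* (42.6 and 43.8%) and *Abca4* (55.0 and 52.8%) lay inside that range and *Dhrs3* (20.9 and 20.7%) just under it, so their cone levels cannot be told apart from the rod background. *Rbp3* in cones stood above the range, at 107.9% (103 to 113) and 139% (133 to 146) of its rod level. The same markers reached 44.4 to 69.7% and 56.1 to 95.1% of their rod level in RGC. The RGC levels of *Rdh12* (300 and 436 CPM) and *Abca4* (530 and 599 CPM) are not read as expression for that reason. *Rbp3* in RGC (939 and 1078 CPM) was above the markers, at 72.1% (62.4 to 82.9) and 102% (88.0 to 117) of its rod level. Its intervals reached into the marker range in both libraries, so it is not read as expression either.

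The 10 MG markers (*Glul*, *Sox9*, *Apoe*, *Slc1a3*, *Aqp4*, *Kcnj10*, *Clu*, *Lhx2*, *Dkk3* and *Car14*) were in rods at 0.412 to 1.54% of their MG level in Ptbp1-Ctrl and at 0.399 to 1.497% in Ptbp1-KO. *Rlbp1* lay within this range, at 1.28 and 1.16%. *Aldh1a1* was at 1.79% (1.11 to 2.74) and 2.88% (1.90 to 4.21), so that its interval reached into the marker range in Ptbp1-Ctrl and not in Ptbp1-KO. *Rdh10* stood above the range in both, at 9.04% (7.99 to 10.2) and 10.3% (9.17 to 11.5), and it stood above it in BC too, at 10.6 and 9.49% against 0.441 to 3.63% and 0.417 to 3.97% for the markers. *Rgr* in rods also stood above the range, on 12 and 7 UMIs, at 13.6% (6.49 to 26.4) and 4.09% (1.58 to 8.96). In AC, *Rlbp1* at 3.09 and 1.60% of its MG level lay within the 2.44 to 17.9% and 1.24 to 16.0% of the MG markers.

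**Figure D3:**
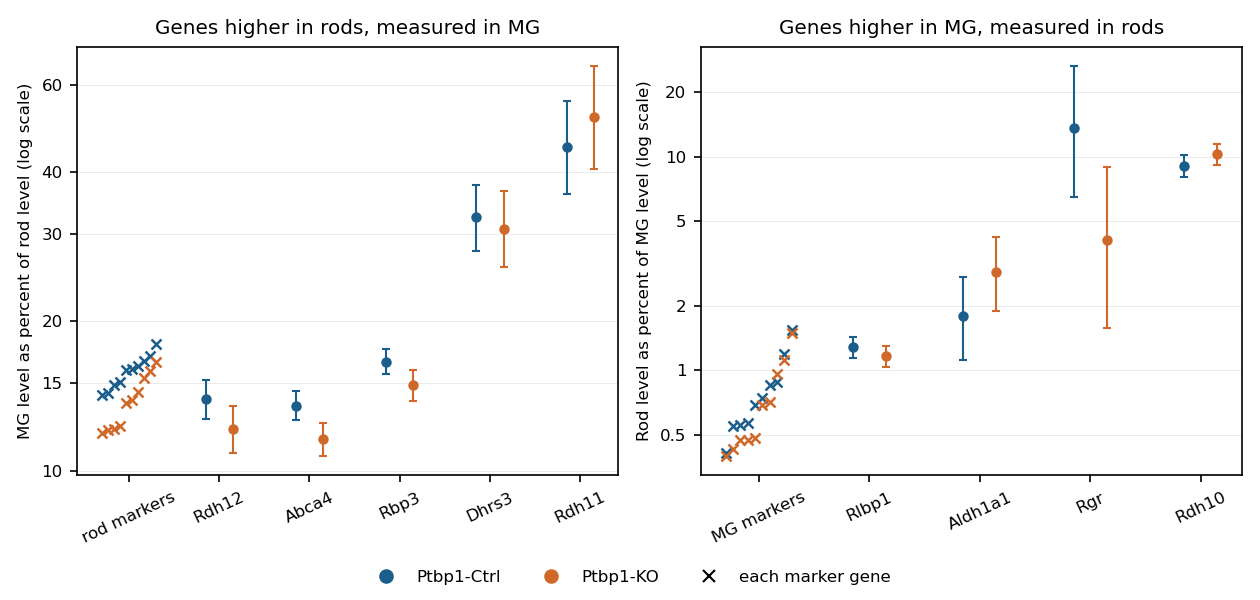
Level in MG as a percent of the rod level for the photoreceptor group (left) and level in rods as a percent of the MG level for the MG group (right), on log axes, with 95% intervals and with crosses for each of the 10 markers. *Rdh12*, *Abca4* and *Rbp3* lie near the 14.2 to 18.0% and 11.9 to 16.6% of the rod markers, while *Dhrs3*, *Rdh11* and, on the right, *Rdh10* and *Rgr* lie above the crosses.

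The share of cells with a UMI was compared after each cell was thinned to 1000 UMIs, which left out 57 and 11 MG and 4155 and 3126 rods as too shallow. *Rlbp1* was seen in 78.9% of MG in Ptbp1-Ctrl (76.9 to 80.8) and 74.5% in Ptbp1-KO (71.9 to 77.0), against 2.24 and 2.01% of rods. Without thinning the MG shares were 91.2 and 90.3% and the rod shares 2.98 and 3.19%. Most MG thus held the transcript, and few rods did. *Rdh10* was seen in 23.2 and 23.9% of MG (53.9 and 60.9% unthinned) and in 2.52 and 2.51% of rods (3.02 and 3.9996%). For *Aldh1a1* the MG shares were 7.70 and 6.05% (19.6 and 17.4% unthinned) against 0.0847 and 0.162% of rods. *Rgr* was seen in 0.661 and 1.11% of MG (2.27 and 3.97% unthinned), and in 0.0847 and 0.0486% of rods. For each of these genes the thinned share was higher in MG than in rods.

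For the photoreceptor group the thinned share in MG stands beside each value as that of another type. For *Rdh12*, *Abca4* and *Rbp3*, whose MG level was near that of the rod markers, a share at or below it is read as background. *Dhrs3* and *Rdh11* stood above the rod markers in MG, so their MG shares are not used in that way. *Abca4* was seen in 65.6 and 67.8% of rods and 45.7 and 45.9% of cones, against 11.2 and 10.5% of MG. *Rdh12* was seen in 46.7 and 42.3% of rods and 22.8 and 19.5% of cones, against 9.38 and 5.37% of MG. Both shares were higher in rods than in cones and MG. The cone shares of both genes were in turn higher than the MG shares. The rod markers also stood higher in cones (a median of 25.3 and 27.3% of their rod level) than in MG (16 and 13.8%). The part of this background in the cone shares was not tested. *Rbp3* differed between the libraries in rods, at 61.8% (60.6 to 63.1) and 48.5% (47.3 to 49.8), but little in cones, at 70.8% (66.9 to 74.4) and 69.6% (65.0 to 74.0), with MG at 13.8 and 11.4%. Its rod shares lay closer together without thinning (56.0 and 49.2%), and the part of the rods left out in this was not tested. The *Dhrs3* share in cones, 1.53 and 1.65%, lay below its MG share of 3.19 and 3.07% whereas 9.71 and 8.91% of rods held a *Dhrs3* UMI. *Rdh11* was seen in 3.68 and 3.22% of rods and 1.86 and 1.53% of MG. Without thinning, the rod shares were 71.5 and 76.2% for *Abca4*, 50.1 and 50.9% for *Rdh12*, 56.0 and 49.2% for *Rbp3*, 11.8 and 12.6% for *Dhrs3* and 4.69 and 4.67% for *Rdh11*, and the MG shares were 30.0 and 29.7%, 21.7 and 18.0%, 31.3 and 26.8%, 10.0 and 11.1% and 5.47 and 6.67%.

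*Rbp3* was also the gene that varied most among rods. At 1000 UMIs per rod its variance over cells was 2.004 and 2.12 times its mean, where counting alone gives a ratio of 1, while *Rdh12* had 1.07 and 1.06 and *Abca4* 1.09 and 1.08. The 4 rod clusters of the authors showed where this spread lay. *Rbp3* stood at 444, 936, 1206 and 2926 CPM in clusters 0, 1, 2 and 3 of Ptbp1-Ctrl and at 353, 841, 1206 and 2946 CPM in those of Ptbp1-KO. *Abca4* had another order, at 1219, 1338, 1020 and 1104 CPM and at 1206, 1315, 1100 and 1190 CPM, and *Rdh12* varied less than *Rbp3*, from 570 to 728 CPM and from 498 to 720 CPM. The clusters were built from the expression of these cells, so their differences are descriptions. Median depth differed between them as well, from 884 to 1431 UMIs per cell in Ptbp1-Ctrl and from 929.5 to 2014 in Ptbp1-KO, and its part in the pattern was not tested.

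Among MG, 3 clusters of the authors could be compared. *Rlbp1* stood at 2064, 472 and 1334 CPM in clusters 4, 16 and 22 of Ptbp1-Ctrl (1386, 245 and 89 cells) and at 2078, 310 and 961 CPM in those of Ptbp1-KO (994, 136 and 54 cells). *Glul*, the glutamine synthetase gene that marks MG, had the same order, at 10506, 2177 and 6205 CPM and 10652, 2145 and 5725 CPM. *Rdh10* was more even, at 289, 218 and 155 CPM and at 273, 286 and 201 CPM. *Aldh1a1* was also highest in cluster 4, at 102, 43.2 and 55.3 CPM and at 76.2, 23.8 and 18.7 CPM. The cells of cluster 16 were the shallowest, with medians of 1314 and 1715 UMIs. The part of depth in the *Rlbp1* pattern was not tested.

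**Figure D4:**
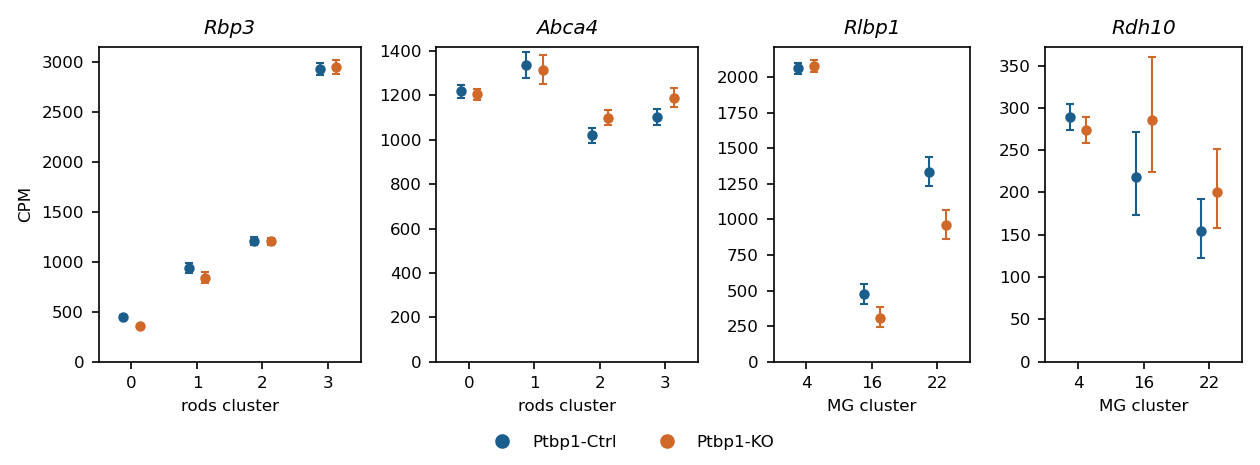
CPM of *Rbp3* and *Abca4* in the rod clusters and of *Rlbp1* and *Rdh10* in the MG clusters (cluster numbers as deposited), with 95% intervals. *Rbp3* ranges from 444 to 2926 CPM among rod clusters of Ptbp1-Ctrl while *Abca4* stays between 1020 and 1338 CPM.

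Among BC, *Rbp3* and *Rdh10* differed by cluster. *Rbp3* ranged from 185 to 752 CPM over 10 BC clusters in Ptbp1-Ctrl and from 124 to 846 CPM in Ptbp1-KO, and in both libraries its highest value was in cluster 21 (118 and 81 cells). *Rdh10* ranged from 12.6 to 66.7 CPM and from 11.6 to 43.0 CPM, and its highest value was in cluster 20 in both libraries, on 18 and 14 UMIs. Over all BC, *Rbp3* was at 21.9 and 23.7% of its rod level, where the rod markers were at 14.0 to 23.1% and 12.4 to 22.8%, and the part of this background in its spread over clusters was not tested.

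To see whether loss of *Ptbp1* went along with other levels of these genes, the Ptbp1-KO level was divided by the Ptbp1-Ctrl level in each of the 5 deep types. A gene was considered in a type where it had at least 200 UMIs over both libraries, and a log2 ratio of at least 0.5 in either direction (1.41-fold) was taken as past the fold. Of 45 combinations of gene and type, 28 passed the minimum and 1 was past the fold. By type, 7 genes passed in rods, 3 in cones, 7 in BC, 4 in AC and 7 in MG. None of the 7 genes in rods was past the fold, where 4.78% of all genes tested were higher and 1.06% lower, 5.83% in either direction. The same held for the 3 genes in cones, with 2.08% of all genes higher, 1.99% lower and 4.07% in either direction. It held for the 7 genes in BC (1.64% higher, 1.22% lower, 2.86% in all) and the 7 in MG (3.2% higher, 2.55% lower, 5.75% in all). In AC 1 of 4 was lower past the fold, against 1.31% of all genes lower, 1.85% higher and 3.16% in either direction. The 28 ratios ran from −0.94 to 0.16. Their medians were −0.15 in rods, −0.02 in cones, −0.06 in BC, −0.07 in AC and −0.22 in MG, beside 0.04, −0.02, 0.01, −0.01 and −0.01 for all genes tested. The MG median includes *Rdh12*, *Abca4* and *Rbp3*, whose MG level was read as rod background above.

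Of the MG group, *Rlbp1* and *Rdh10* had summed levels close to each other in MG of the 2 libraries, while *Aldh1a1* was lower and *Rgr* higher in Ptbp1-KO. *Rlbp1* had a log2 ratio of 0.01 (−0.03 to 0.05) and *Rdh10* of −0.02 (−0.13 to 0.08) over all MG. By cluster, *Rlbp1* was at 0.01 (−0.03 to 0.05) in cluster 4, which held 80.6 and 84.0% of MG, but at −0.61 (−1.01 to −0.21) in cluster 16 and −0.47 (−0.66 to −0.29) in cluster 22. *Rdh10* was at −0.08 (−0.19 to 0.03), 0.39 (−0.09 to 0.86) and 0.38 (−0.10 to 0.85) in the same clusters. *Rlbp1* was thus level in the main cluster and lower in Ptbp1-KO in the smaller clusters. *Aldh1a1*, at 94.1 CPM against 69.4 CPM in the Ptbp1-KO library, had a log2 ratio of −0.44 (−0.64 to −0.24), which was short of the fold, and within cluster 4 alone it was −0.42 (−0.62 to −0.22). *Rgr*, with 100 UMIs in all, did not pass the minimum, and its log2 ratio in MG was 0.80 (0.20 to 1.42). *Aldh1a1* and *Rgr* thus pointed in opposite directions in MG, each from 1 library a side.

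The combination past the fold was *Rlbp1* in AC, with 115 UMIs in Ptbp1-Ctrl (58.8 CPM) and 118 UMIs (30.6 CPM) in Ptbp1-KO, so that the log2 ratio was −0.94 (−1.33 to −0.56). By cluster, the ratio was −1.60 (−2.39 to −0.83) in cluster 6, −0.51 (−0.99 to −0.03) in cluster 14 and 0.35 (−1.06 to 1.98) in cluster 15. All 10 MG markers were detected in AC of both libraries, at a summed level of 1019 and 800 CPM, and their median AC level was 2.78% and 1.97% of that in MG. Their part in the *Rlbp1* value was not tested.

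Among the photoreceptor group in rods, *Rbp3* had the lowest ratio, at a log2 of −0.30 (−0.33 to −0.27), and *Rdh11* followed at −0.26 (−0.45 to −0.08). *Rdh12* was at −0.16 (−0.21 to −0.12), *Dhrs3* at −0.15 (−0.26 to −0.04) and *Abca4* at 0.04 (0.01 to 0.07). The sign for *Abca4* turned with other scaling, since trimmed means and median ratios moved all rod ratios by −0.09 and −0.11. In cones the ratios were −0.12 for *Rdh12*, −0.02 for *Abca4* and 0.07 for *Rbp3*, and each interval included 0.

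The *Rbp3* value in rods went along with the mix of rod clusters. Cluster 0, the lowest in *Rbp3*, held 45.9% of the control rods and 58.7% of those in Ptbp1-KO, and cluster 3, the highest, held 18.2% and 10.5%. Within clusters the log2 ratio was −0.33 (−0.41 to −0.25) in cluster 0 and −0.15 (−0.27 to −0.04) in cluster 1, and its interval included 0 in clusters 2 and 3, the latter at 0.01 (−0.03 to 0.05). With the clusters of Ptbp1-KO weighted as in Ptbp1-Ctrl, a setting chosen after seeing the data, the ratio over all rods was −0.05 in place of −0.30. Since *Rbp3* may have shaped the clusters, a different mix of rods and a different level per rod cannot be told apart here.

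Photoreceptor genes outside photoreceptors were set beside the rod background. In MG, *Rbp3* had a log2 ratio of −0.45 (−0.58 to −0.33), *Rdh12* of −0.36 (−0.56 to −0.16), *Dhrs3* of −0.22 (−0.55 to 0.09) and *Abca4* of −0.19 (−0.33 to −0.04). Beside them, the median MG level of the 10 rod markers was 16% of their rod level in Ptbp1-Ctrl and 13.8% in Ptbp1-KO. In BC the values were −0.41 (−0.55 to −0.28) for *Rdh12* and −0.18 (−0.26 to −0.10) for *Rbp3*, where the median BC level of the rod markers was 15.5 and 14.4% of that in rods. The part of this background in the ratios was not tested.

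**Figure D5:**
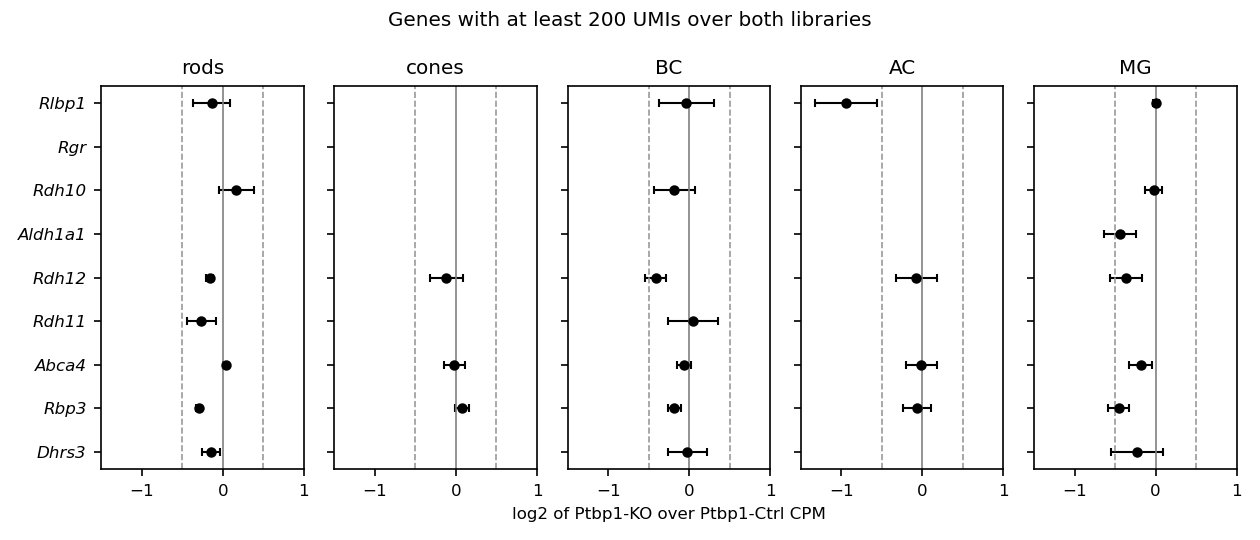
Log2 ratio of the Ptbp1-KO over the Ptbp1-Ctrl level for the 28 combinations of gene and type with at least 200 UMIs, with 95% intervals that cover counting error only. The dashed lines mark the fold of 0.5 in either direction, and *Rlbp1* in AC, at −0.94, is the point beyond them.

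Other genes of the pathway were taken from a list of 47, of which 45 were in the table, covering further retinoid enzymes, carriers, retinoic acid receptors and opsins. In rods 15 of the 45 passed the minimum and 1 was past the fold, *Rarb*, a retinoic acid receptor gene, with 40.3 CPM in control rods and 65.9 CPM in those of Ptbp1-KO (log2 0.71, 0.55 to 0.86), where 4.78% of all genes tested were higher past the fold. In MG and in BC 13 of the listed genes passed, of which 1 in each type was lower past the fold, where 2.55% and 1.22% of all genes tested were. In AC 5 passed, of which *Rxrb*, a retinoid X receptor gene, was higher (26.6 and 38.9 CPM, log2 0.55, 0.08 to 1.03, beside 1.85% of all genes) and *Opn1mw*, the medium-wavelength cone opsin gene, was lower (60.3 and 32.7 CPM, −0.88, −1.26 to −0.51, beside 1.31% of all genes). The 8 cone markers, of which *Opn1mw* is one, summed to 601 and 480 CPM in AC with none at 0, and their part in that value was not tested. In cones 4 passed and none was past the fold. The medians of the list were −0.02 in rods, 0.01 in cones, −0.12 in BC, −0.13 in AC and −0.08 in MG.

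The listed genes that reached 50 CPM in a type of both libraries included genes of MG and of cones. *Rrh*, for the opsin peropsin, stood in MG at 205 CPM (194 to 217) and 194 CPM (182 to 206) and in rods at 2.07 and 1.45 CPM. *Degs1*, a desaturase for which a retinol isomerase activity has been described, was at 56.4 and 53.3 CPM in MG. *Dhrs7*, of the same enzyme family as *Dhrs3*, was at 105 and 103 CPM in MG and 61.1 and 58.5 CPM in rods. These enzyme and opsin genes were each higher in MG than in rods where both were given. *Rxrg*, a retinoid X receptor gene known from cones, reached 64.2 and 65.9 CPM in cones. The cone opsin genes *Opn1sw* and *Opn1mw* were in cones at 8472 and 8403 CPM and at 3142 and 3244 CPM, with log2 ratios of −0.01 (−0.05 to 0.02) and 0.05 (−0.01 to 0.10).

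Several further genes were chosen after their values were seen. *Rpe65*, the isomerase of the pigment epithelium, had 2 UMIs in MG of Ptbp1-Ctrl and 3 in those of Ptbp1-KO, and *Lrat*, which esterifies retinol there, had 1 in each. The 12 pigment epithelium markers summed to 19.4 CPM or less in rods, cones, BC and AC, and to 225 and 218 CPM in MG, where *Rrh* made up most of it. The neural retina libraries thus held little of the pigment epithelium's share of the cycle. *Rdh8*, the outer segment retinal reductase, was in rods at 42.0 CPM (38.5 to 45.6) and 42.4 CPM (39.1 to 45.9) and in MG at 6.10 and 4.92 CPM. *Cyp26b1*, which breaks down retinoic acid, was in MG at 23.0 CPM (136 UMIs) and 3.93 CPM (20 UMIs), and *Cyp26a1*, of the same family, at 11.3 CPM (67 UMIs) and 6.10 CPM (31 UMIs). Both were under the minimum of 200 UMIs.

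The pattern of each gene was compared with that of 13352 genes over 44 sums of cluster and library, as the Pearson correlation of log2(CPM + 10), given as a description of points that share libraries and depth. Within the MG group the correlations ran from 0.78 to 0.94, within the photoreceptor group from 0.50 to 0.94, and between the groups from −0.30 to 0.02. The lowest value within the photoreceptor group was that of *Rbp3* with *Dhrs3*, the latter having the largest ratio of rods over cones. *Rlbp1* was most like *Prdx6* (0.979), *Vim* and *Espn*, *Rdh10* most like *Ptch1* (0.920), *Sparc* and *Heph*, and *Aldh1a1* most like *Cxcl16* (0.958), *Arhgef19* and *Crip2*. *Rdh12* was most like *Rp1* (0.979), *Agpat3* and *Sag*, *Abca4* most like *Fam57b* (0.961), *Sag* and *Bicdl1*, and *Rbp3* most like *Cdhr1* (0.937), *Prcd* and *Rcvrn*. *Dhrs3* was most like *Ebpl* (0.868), *Pla2g7* and *Cngb1*, and *Rdh11* most like *Uhmk1* (0.806), *Nxnl1* and *Gm48236*. With an offset of 1 in place of 10, all 3 names were kept for *Rdh12*, *Abca4* and *Rbp3*, 2 for *Rdh10*, *Aldh1a1*, *Rdh11* and *Dhrs3*, and 1 for *Rlbp1*. *Rgr* was too low to be ranked.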

How the data were processed

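Retinas were dissociated with papain and captured on the 10x Genomics 3′ platform. Per the labels and the methods, the authors aligned reads to mm10 with Cell Ranger 7.0.1 and filtered and clustered cells in Seurat 4. The annotation used and the treatment of intronic reads are not given in the sources used here. The deposited count table holds raw UMI counts of 25778 genes in 30943 cells. The deposited cell table gives the sample, cluster and cell type of each cell and the percent of mitochondrial UMIs, and 2 further columns of per-cell values were not used. All 30943 cells met the filter stated by the authors (200 to 5000 genes, 700 to 10000 UMIs, under 20% mitochondrial).

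UMIs were summed by library and cell type and divided by the sum to give CPM (Python 3.11.15, NumPy 2.4.6, pandas 2.3.3, SciPy 1.17.1), with exact Poisson intervals for levels, conditional binomial intervals for ratios and Clopper-Pearson intervals for shares. Because cells of 1 mouse are not replicates, the rank sum test over cells of the study was left out. Doublets were not called, and a filter that leaves out the 10% of cells richest in markers of other types was tried in place of it. Alternative settings were trimmed mean scale factors (TMM, edgeR 4.0.16) and median-of-ratios scale factors, thinning to 1000 UMIs, the mean of per-cell CPM, the largest cluster of each type, other UMI minimums and other folds. Weighting the clusters as in Ptbp1-Ctrl was added after seeing the data. Scripts were tested on simulated counts.

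Genes were named by rule, namely the 9 genes, the listed genes that reached 50 CPM in a type of at least 1000000 UMIs in both libraries or passed the fold, the 3 most similar genes of each, and check and marker genes. Genes outside it are said to be chosen after seeing their values. The 9 genes and the lists were chosen with earlier results of these data known. Sequences are from RefSeq and gene positions from GENCODE vM21. Some genes of the lists are not reported here.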

Additional observations from a re-analysis of the deposited data

Results flagged for a closer look

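One result was singled out because the ratios of the 2 cell types had opposite signs. The log2 ratio of Ptbp1-KO over Ptbp1-Ctrl for *Abca4* was 0.04 (0.01 to 0.07) in rods and −0.19 (−0.33 to −0.04) in MG, a difference of 0.22. With 1 library per genotype the difference was not tested. *Abca4* in MG was at 13.5 and 11.6% of its rod level, read as background above. Beside it, the median of the rod markers in MG was 16 and 13.8% of their rod level, and the part of this background was not tested. The rod value changed sign to −0.06 with TMM scale factors, −0.08 with median-of-ratios scale factors and −0.02 in the largest cluster alone.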

How the results depend on the processing

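The division of the 9 genes between photoreceptors and MG was run under 4 settings (thinning, the marker filter, the per-cell mean and the largest cluster), with 5 genes higher in photoreceptors each time, although 26 ratios of MG over photoreceptors moved beyond their intervals and 46 did not, and 77 shares of UMIs did and 31 did not. Counts past the fold between the libraries did move. Against reported counts of 0 genes of the 9 in rods, cones, BC and MG and 1 in AC, thinning gave 1 in rods, 1 in BC and 1 in MG, leaving out the 10% of cells richest in other markers gave 1 in BC and 1 in MG, the mean of per-cell CPM gave 1 in MG, and the largest cluster gave 2 in BC and 1 in MG. A minimum of 50 UMIs gave 1 in MG, and no minimum gave 1 in rods, 1 in cones, 1 in BC, 2 in AC and 1 in MG. A fold of 0.3 gave 1 in BC and 3 in MG, and a fold of 1 gave 0 in AC. For the listed genes, the reported counts were 1 in rods, 0 in cones, 1 in BC, 2 in AC and 1 in MG. Thinning gave 2, 2, 0 and 3 in rods, BC, AC and MG, the marker filter 3 in BC and 3 in MG, the per-cell mean 1 in AC, the largest cluster 2 in rods and 2 in MG, and weighting clusters as in Ptbp1-Ctrl 2 in MG. A minimum of 50 UMIs gave 5, 5, 3 and 4 in rods, cones, BC and MG, and no minimum gave 15, 14, 12, 14 and 17 in rods, cones, BC, AC and MG. A fold of 0.3 gave 3, 2 and 5 in rods, BC and MG, and a fold of 1 gave 0 in rods, AC and MG. The median ratio of the 9 genes was −0.015 in rods, −0.39 in BC and −0.38 in AC in the largest cluster, −0.26 in rods with median-of-ratios scale factors and −0.18 in BC with the per-cell mean. The cause of these changes was not tested, except that a lower minimum or fold admits more genes by construction. *Rbp3* in rods ranged from −0.50 when thinned to −0.05 with weighted clusters, and *Rlbp1* in AC from −1.60 to −0.69. No library could be left out, since each genotype had 1. No paired analysis was possible because each genotype had 1 library and the result comes from no test. Depth limits *Rgr* most, with at most 60 UMIs in a type, and the RGC and HC.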
